A study of Mus musculus with 19 samples.

Results

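Structural genes of the vascular, nerve and stromal basement membrane were followed from uninjured hind limb tissue to an injury site that forms heterotopic ossification, bone laid down in soft tissue. The members were picked by name: Col4a1 and Col4a2, the chains of the major type IV collagen; Col15a1 and Col18a1, collagens of the outer face of the membrane; Lama2, Lama4, Lamb1 and Lamc1, chains of laminin; Nid1, nidogen; and Hspg2, perlecan. They make up 10 of the 27998 genes in the deposited count matrices, and all 10 were found by symbol. Of 19 single-cell libraries, 15 formed a time course of a dorsal partial-thickness burn with an Achilles tenotomy, 4 at day 0, 3 at day 3, 4 at day 7 and 4 at day 21. The other 4 were taken from injured mice given a CD47 activating peptide at 10 mg/kg daily, with treatment 3 days before and 3 days after injury per their labels. The text of the study also describes a longer daily course, without tying it to these libraries. CD47 is a cell surface receptor of thrombospondin. These 4 are grouped at day 7, although the labels of replicate 4 do not give its harvest day.

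The labels list the burn/tenotomy for the day 0 mice too, whereas the methods describe day 0 as tissue taken before injury, and it is treated here as uninjured. C57 mice and LysmCre/Tgfb1fx/fx mice are named for the series as a whole, the latter carrying Cre under the myeloid lysozyme M promoter and a floxed Tgfb1, and the labels give no genotype for a library. The methods describe wild-type animals as young adult male C57BL/6J mice. The study set the peptide against PBS in its single-cell work, but the labels of the day 7 libraries name no PBS, so whether these mice were injected is not given and peptide and injection cannot be told apart. Its reporting notes present the single-cell replicates as a measure of variation between mice. The labels tie no library to an animal, and each p-value measures the spread between these libraries. Tissue was digested with collagenase and dispase, enzymes that cut basement membrane, and only cells freed in this way were measured.

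A basement membrane is a thin sheet of matrix under endothelium and epithelium and around mural cells, Schwann cells, muscle fibres and fat cells. Laminin trimers of an alpha, a beta and a gamma chain polymerise at the cell surface and bind integrins and dystroglycan, type IV collagen forms a covalent network, and nidogen and perlecan join the networks. Capillary membranes carry laminins with the alpha4 chain of Lama4, whereas the alpha2 chain of Lama2 is the main alpha chain around muscle fibres and peripheral nerve.

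Col4a1 and Col4a2 lie head to head on chromosome 8 and are transcribed away from each other, Col4a1 from the minus strand (chr8:11198423-11312826) and Col4a2 from the plus strand (chr8:11312805-11449287, GRCm38, GENCODE). In RefSeq (GRCm38.p6) their 5′ ends overlap by 22 bases, chr8:11312805-11312826, printed on the plus strand because both genes start at its ends, with the GC box GGGCGG in capitals.
Col4a1 and Col4a2 shared start: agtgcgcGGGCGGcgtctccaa

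The 250 bases upstream of a start site are shown for Col15a1 (chr4:47207762-47208011, plus strand) and Lama2 (chr10:27616943-27617192, minus strand, both GRCm38.p6, RefSeq), since these were the members with the lowest log2 fold changes in stromal-like cells at day 3.
Col15a1 upstream: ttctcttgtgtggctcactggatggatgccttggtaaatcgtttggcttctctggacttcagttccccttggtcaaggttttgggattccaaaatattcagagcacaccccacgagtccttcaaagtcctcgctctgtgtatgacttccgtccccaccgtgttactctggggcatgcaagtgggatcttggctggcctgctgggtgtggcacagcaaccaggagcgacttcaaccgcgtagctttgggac
Lama2 upstream: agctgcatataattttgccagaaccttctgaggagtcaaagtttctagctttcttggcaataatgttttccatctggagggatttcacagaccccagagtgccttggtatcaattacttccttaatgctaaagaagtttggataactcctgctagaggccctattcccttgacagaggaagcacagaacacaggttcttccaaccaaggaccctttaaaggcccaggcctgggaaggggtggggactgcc

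Neither stretch holds the GC box, the CCAAT motif or the TATA box, spelled TATAAA, on either strand. GENCODE places the 5′ end of Lama2 at chr10:27619758, upstream of the RefSeq start at 27616942. The Lama2 stretch therefore lies inside the GENCODE gene. RefSeq promoter entries were found for 8 of the 10 members, as 9 start sites, and only the 250 bases upstream of each start were searched. Of these stretches, 5 held GGGCGG and 5 held CCAAT, against 32.7% and 33.8% of all 32851 stretches of this length, and 0 held TATAAA, against 12.4%. These matches describe letters only.

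After filtering, 39541 cells were clustered without the members, 24 other basement membrane genes and 16 receptors of basement membrane. Clusters were named from marker genes, so the names below carry the suffix like. Library totals ran from 3019467 to 5383855 UMIs (unique molecular identifiers, 1 per captured transcript) at day 0 and from 11064153 to 39870492 at the other time points. No pair of libraries shared over 1.26% of the barcodes of the smaller one. Endothelial-like cells were 32.1%, 1.70%, 5.46% and 15.4% of cells at days 0, 3, 7 and 21 (means over libraries), mural-like cells 5.02%, 1.63%, 4.11% and 10.7%, stromal-like cells 31.0%, 13.9%, 28.3% and 29.0%, and Schwann-like cells 3.12%, 0.167%, 0.594% and 3.61%. Labels were checked against defining markers at day 0. Pecam1, an endothelial adhesion molecule, averaged 929 CPM (UMIs of a gene in the summed cells, scaled to the same total for every sum) in endothelial-like cells and at most 19.1 in the other 3 lineages. Notch3, a mural receptor, averaged 786 in mural-like cells, Pdgfra, a fibroblast receptor, 396 in stromal-like cells, and Sox10, a Schwann lineage factor, 332 in Schwann-like cells. At day 7 Sox10 averaged 186 CPM there. Rgs5, a second mural marker, separated the lineages less well. It averaged 2096 CPM in mural-like and 905 in endothelial-like cells at day 0. In endothelial-like cells it averaged 143 CPM at day 7 and 645 at day 21. Its part in the results was not tested. Schwann-like cells were too few for a sum at day 3 and in all but 1 peptide library.

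In uninjured tissue each lineage held its own mixture of members. Counts were summed per library and lineage and are given as CPM, which are not scaled by gene length. Col4a1 was highest in endothelial-like cells, at 1104, 1260.1, 1032 and 1181 CPM in the 4 day 0 libraries, against 489.5, 579, 488 and 580.4 in mural-like and 784, 603, 497 and 491 in stromal-like cells. Every endothelial-like library lay above every mural-like and stromal-like one. Lama2 had the reverse distribution, at 200.3, 173, 150.2 and 143 CPM in stromal-like and 8.93, 8.40, 4.18 and 4.98 in endothelial-like cells, a log2 difference of -4.81 ± 0.19 (SE, edgeR adjusted p = 4.97e-24) for endothelial-like minus stromal-like. Nid1 stood at 864, 765, 722 and 824 CPM in stromal-like cells, above all other lineages (-2.60 ± 0.11 SE, edgeR adjusted p = 1.87e-23 for endothelial-like minus stromal-like). Lamb1 was highest in Schwann-like cells, at 275, 309, 229.9 and 178 CPM, none of which overlapped the stromal-like range of 78.1 to 112 (1.17 ± 0.19 SE, edgeR adjusted p = 2.64e-06 for Schwann-like minus stromal-like). Col18a1 was highest in mural-like cells, at 217, 219, 206 and 315 CPM, and low in endothelial-like cells, at 11.9, 28.6, 41.0 and 44.8.

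**Figure D1:**
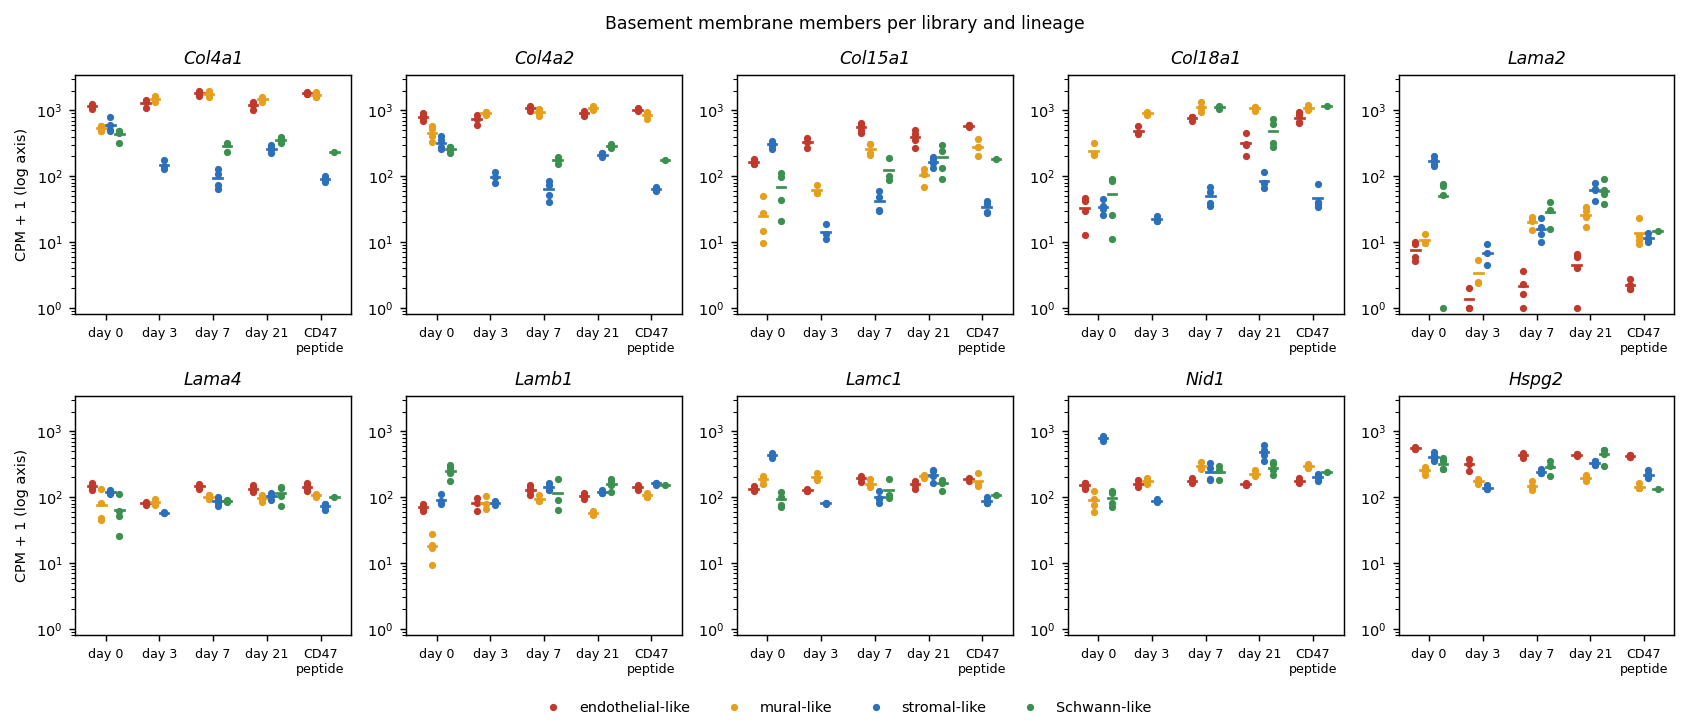
Level of each member (CPM + 1, log axis) in each library, by lineage and group, with bars at the group means. Col4a1 sits highest in endothelial-like cells at day 0, at a mean of 1144 CPM, and Lama2 in stromal-like cells, at 166 CPM.

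Between lineages of the same libraries at day 0, 8 of 10 members differed between endothelial-like and stromal-like cells (3 higher in the first, 5 lower), where 63.9% of all genes tested did. Higher were Col4a1, Col4a2 and Hspg2, and lower Col15a1, Lama2, Lamb1, Lamc1 and Nid1. Likewise 9 of 10 members differed between endothelial-like and mural-like cells (7 higher in the first, 2 lower), where 46.2% of all genes tested did. Higher were Col15a1, Col4a1, Col4a2, Hspg2, Lama4, Lamb1 and Nid1, and lower Col18a1 and Lamc1. For mural-like minus stromal-like cells 2 members were higher (Col18a1 and Col4a2) and 7 lower (Col15a1, Hspg2, Lama2, Lama4, Lamb1, Lamc1 and Nid1), against 44.7% of genes called. For Schwann-like minus stromal-like cells 1 was higher (Lamb1) and 8 lower (Col15a1, Col4a1, Col4a2, Hspg2, Lama2, Lama4, Lamc1 and Nid1), against 39.4%. Endothelial-like minus Schwann-like cells gave 7 higher (Col15a1, Col4a1, Col4a2, Hspg2, Lama4, Lamc1 and Nid1) and 2 lower (Lama2 and Lamb1), against 42.4%. Mural-like minus Schwann-like cells gave 4 (Col18a1, Col4a1, Col4a2 and Lamc1) and 3 (Col15a1, Lama2 and Lamb1), against 34.7%, or 4 calls without replicate 4. For mural-like minus Schwann-like cells the call was lost for Col4a1 without replicate 2, 3 or 4 (adjusted p up to 0.256), Col15a1 without replicate 1 or 4 (adjusted p up to 0.397) and Lama2 without replicate 4 (adjusted p up to 0.0504). For endothelial-like minus Schwann-like cells the call was lost for Lamc1 without replicate 1, 2 or 4 (adjusted p up to 0.211) and Nid1 without replicate 2 or 3 (adjusted p up to 0.109). For mural-like minus stromal-like cells the call was lost for Col4a2 without replicate 2 or 4 (adjusted p up to 0.37). For Schwann-like minus stromal-like cells the call was lost for Col4a2 without replicate 1 (adjusted p up to 0.106). When genes needed 10 UMIs or more in each sum, fewer genes were tested, and 1 to 3 members were called in each of these 6 comparisons. The log2 difference of endothelial-like minus stromal-like cells was 0.24 ± 0.10 (SE, edgeR adjusted p = 0.0328) for Hspg2, lost without replicate 2, 3 or 4 (adjusted p up to 0.265), and 0.09 ± 0.12 (SE, edgeR adjusted p = 0.509) for Lama4.

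At day 7 the collagens were higher in the vascular lineages than in stromal-like cells. The Col4a1 difference of endothelial-like minus stromal-like cells was 4.12 ± 0.17 (SE, edgeR adjusted p = 8.79e-13), that of Col4a2 3.93 ± 0.17, that of Col18a1 3.78 ± 0.16 and that of Col15a1 3.55 ± 0.23. All 10 members differed in this comparison (7 higher and 3 lower, Lama2, Lamb1 and Nid1), where 59.7% of genes did. For endothelial-like minus stromal-like cells the call was lost for Lamb1 without replicate 1, 2 or 3 (adjusted p up to 0.321). Mural-like minus stromal-like cells gave 5 higher (Col15a1, Col18a1, Col4a1, Col4a2 and Lamc1) and 2 lower members (Hspg2 and Lamb1), where 48.1% of genes were called, with Col18a1 at 4.30 ± 0.16 and Col4a1 at 4.03 ± 0.17. In endothelial-like minus mural-like cells 4 members were higher (Col15a1, Hspg2, Lama4 and Lamb1) and 3 lower (Col18a1, Lama2 and Nid1), where 48.3% of genes were called. For endothelial-like minus mural-like cells the call was lost for Lamb1 without replicate 2 (adjusted p up to 0.066). Neither Col4a1 (0.09 ± 0.15 SE, edgeR adjusted p = 0.679) nor Col4a2 (0.22 ± 0.15 SE, edgeR adjusted p = 0.249) passed the test. Schwann-like cells gave 4 higher (Col15a1, Col18a1, Col4a1 and Col4a2) and 1 lower (Lamb1) against stromal-like cells, where 37.3% of genes were called, with Col18a1 at 4.12 ± 0.17, and 3 calls without replicate 2. For Schwann-like minus stromal-like cells the call was lost for Col15a1 without replicate 2 or 3 (adjusted p up to 0.118) and Lamb1 without replicate 1 or 2 (adjusted p up to 0.243). Endothelial-like minus Schwann-like cells gave 6 higher (Col15a1, Col4a1, Col4a2, Hspg2, Lama4 and Lamc1) and 1 lower (Lama2), where 39.8% of genes were called. Mural-like minus Schwann-like cells gave 4 higher (Col15a1, Col4a1, Col4a2 and Nid1) and 1 lower (Hspg2), where 30.3% were. For mural-like minus Schwann-like cells the call was lost for Nid1 without replicate 1, 2 or 4 (adjusted p up to 0.172).

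Against day 0, most members were lower in stromal-like cells at each time point, and at day 7 most were higher in the vascular lineages. At day 3, 9 of 10 members were lower in stromal-like cells and 0 higher, with Lamb1 the member that did not pass the test (-0.05 ± 0.12 SE, edgeR adjusted p = 0.747), while 33.3% of the 10398 genes tested were higher and 32.8% lower. The median member log2 change was -1.79 beside 0.00 over all genes. At day 7, 8 members were lower and 2, Lamb1 and Col18a1, higher, with a median of -1.91, while 27.5% of the 12271 genes tested were higher and 25.7% lower. The Col18a1 call was lost without any of 5 single libraries and turned to -0.16 with tenocyte-like cells added. At day 21, 7 were lower and 2 higher (Col18a1 and Lamb1), with a median of -0.64, while 16.7% of the 10246 genes tested were higher and 16.2% lower. These comparisons share the day 0 libraries. In CPM, the sum of 7 granulocyte markers in stromal-like cells was 63.8 to 106 (day 0), 1444 to 2453 (day 3) and 141 to 216 (day 7), while that of the monocyte/macrophage markers was 52.6 to 167 (day 0), 1517 to 1712 (day 3) and 405 to 703 (day 7). Their part in the result was not tested. Among other basement membrane genes, 8 of 16 fell and 3 rose at day 7, the largest changes being those of the minor type IV collagen chains Col4a3 (-5.96 ± 0.57), Col4a4 (-3.60 ± 0.25) and Col4a5 (-3.03 ± 0.23, log2 ± SE). At day 3, 10 of 14 fell and 1 rose, and at day 21, 7 of 15 fell and 2 rose. Of 14 receptors, 6 fell and 3 rose at day 7, with Sdc1, a syndecan, at 3.99 ± 0.14. The receptor counts were 6 lower and 3 higher of 11 at day 3, and 3 and 3 of 11 at day 21.

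In endothelial-like cells 3 of 9 members tested were higher (Col15a1, Col18a1 and Col4a1) and 2 lower (Hspg2 and Lama4) at day 3, while 28.6% of the 9075 genes tested were higher and 27.8% lower. At day 7, 7 were higher (Col15a1, Col18a1, Col4a1, Col4a2, Lamb1, Lamc1 and Nid1) and 1, Hspg2, lower, while 29.6% of the 9302 genes tested were higher and 29.8% lower. At day 21, 3 were higher (Col15a1, Col18a1 and Lamb1) and 1, again Hspg2, lower, while 14.2% of the 9107 genes tested were higher and 13.7% lower. The median member change was 0.20, 0.54 and 0.22 on the log2 scale at the 3 time points, and that of all genes -0.03, -0.02 and 0.00. Lama2 did not pass the filter on low counts here. In CPM, the sum of 5 capillary markers was 7828 to 8659 (day 0), 905 to 2057 (day 3), 1093 to 1839 (day 7) and 2171 to 4957 (day 21), that of 5 venous markers 201 to 344 (day 0) and 448 to 949 (day 7), and that of the granulocyte markers 41.3 to 56.3 (day 0) and 1263 to 2122 (day 3), and their part in these results was not tested. At day 7, 3 of the 12 other basement membrane genes tested were higher and 6 lower. Of 14 receptors 2 were higher and 7 lower. Nid2, the second nidogen, rose by 1.71 ± 0.16 and Npnt, nephronectin, an integrin ligand, by 2.11 ± 0.38 (log2 ± SE). The receptors Bcam (-2.45 ± 0.17), a laminin receptor, and Itga1 (-2.33 ± 0.21), a collagen-binding integrin, fell. At day 3, 1 of the 10 other basement membrane genes tested was higher and 5 lower. Of 14 receptors 4 were higher and 7 lower. At day 21, 1 of the 12 other basement membrane genes tested was higher and 3 lower. Of 14 receptors 3 were higher and 4 lower.

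In mural-like cells 6 of 9 members tested were higher and 1 lower at day 3, while 28.2% of the 3962 genes tested were higher and 28.9% lower. The counts were 6 and 1 of 10 at day 7, while 25.1% of the 7693 genes tested were higher and 21.7% lower. At day 21 they were 6 and 1 of 9, while 15.8% of the 6194 genes tested were higher and 15.9% lower. The members that rose were Col4a1, Col4a2, Col15a1, Col18a1, Lamb1 and Nid1 at each time point, and the member that fell was Hspg2. Some of these calls were lost within single clusters of the lineage, as given below. The median member change was 1.07, 1.29 and 1.35 on the log2 scale, beside 0.03, 0.09 and 0.02 over all genes. In CPM, the sum of 5 pericyte markers was 2173 to 4282 (day 0) and 7407 to 8961 (day 7), that of the smooth muscle markers 23996 to 31927 (day 0) and 9292 to 13316 (day 7), and that of 12 stromal markers 1128 to 2605 (day 0) and 8951 to 10051 (day 7), and their part in these results was not tested. At day 7, 4 of the 11 other basement membrane genes tested were higher and 6 lower. Of 14 receptors 4 were higher and 5 lower. Nid2 was at 4.36 ± 0.61, Col4a5 at -3.49 ± 0.43 and the integrin chain Itga3 at -2.80 ± 0.52 (log2 ± SE). At day 3, 2 of the 7 other basement membrane genes tested were higher and 5 lower. Of 10 receptors 2 were higher and 4 lower. At day 21, 3 of the 11 other basement membrane genes tested were higher and 5 lower. Of 11 receptors 4 were higher and 3 lower.

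In Schwann-like cells, of which 3 day 7 libraries held enough, 2 of 9 members tested were higher (Col18a1 and Nid1) and 3 lower (Col4a1, Col4a2 and Lamb1) at day 7, while 29.4% of the 2907 genes tested were higher and 27.3% lower. At day 21, 3 of 10 were higher (Col15a1, Col18a1 and Nid1) and 1 lower (Lamb1), while 10.9% of the 3314 genes tested were higher and 12.6% lower. The median member change was 0.28 and 0.54, beside 0.09 and 0.03 over all genes. At day 7, 2 of the 4 other basement membrane genes tested were higher and 1 lower. Of 9 receptors 2 were higher and 4 lower. Among those higher were Fbln2, a fibulin, at 5.21 ± 0.43 and Agrn, agrin, at 1.73 ± 0.44 (log2 ± SE). Among those lower were the laminin-binding integrin chains Itgb4 (-1.93 ± 0.32) and Itga6 (-1.89 ± 0.23). At day 21, 2 of the 4 other basement membrane genes tested were higher and 0 lower. Of 8 receptors 0 were higher and 2 lower. Without any 1 of day 0 replicates 1, 2 and 3, the day 21 count of 4 calls became 2. These sums were the shallowest, from 71309 to 157290 UMIs at day 0.

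**Figure D2:**
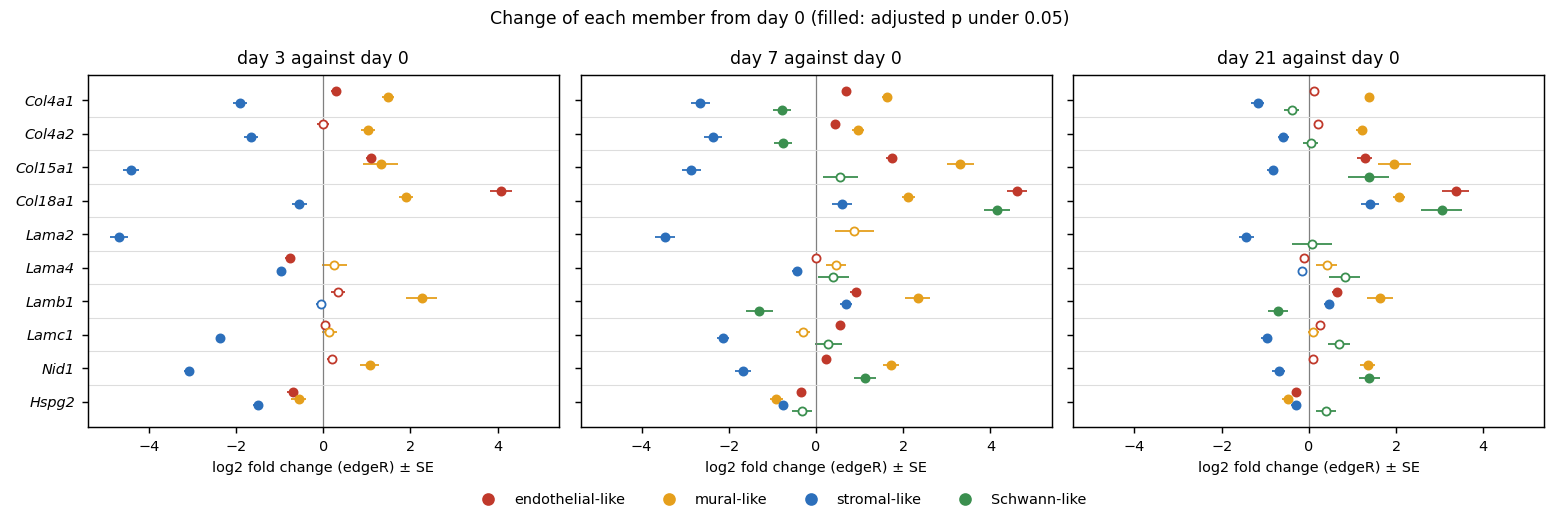
Log2 fold change from day 0 of each member (± SE) at days 3, 7 and 21 in each lineage, with filled points where the edgeR adjusted p was under 0.05. Stromal-like Lama2 and Col15a1 lie lowest at day 3, at -4.68 and -4.41, and endothelial-like Col18a1 highest at day 7, at 4.61.

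Type IV collagen, the covalent network of the membrane, rose in the vascular lineages at day 7 and fell in stromal-like cells. In mural-like cells Col4a1 was at 489.5, 579, 488 and 580.4 CPM at day 0, 1665, 1460.4 and 1341 at day 3, 1973, 1707, 1567 and 1749 at day 7 and 1341, 1615, 1423 and 1465 at day 21. All injured libraries were above all day 0 libraries, and the log2 change was 1.49 ± 0.13 (SE, edgeR adjusted p = 2.15e-07) at day 3, 1.63 ± 0.12 (SE, edgeR adjusted p = 4.29e-09) at day 7 and 1.38 ± 0.10 (SE, edgeR adjusted p = 5.37e-08) at day 21. In endothelial-like cells, which started higher, Col4a1 was at 1921, 1794, 1639 and 1975 CPM at day 7, above each day 0 library, a change of 0.69 ± 0.09 (SE, edgeR adjusted p = 1.44e-05). The day 3 values of 1102, 1341 and 1417 CPM overlapped day 0, with a change of 0.29 ± 0.11 (SE, edgeR adjusted p = 0.0383) that was lost without any of 5 single libraries (adjusted p up to 0.158). At day 21 the values were 1288, 1014, 1318 and 1209 CPM, and the change of 0.11 ± 0.10 (SE, edgeR adjusted p = 0.446) did not pass the test. In stromal-like cells Col4a1 was at 784, 603, 497 and 491 CPM at day 0, 175, 139.9 and 128 at day 3, 129, 63.5, 107 and 73.2 at day 7 and 235, 293, 277 and 225 at day 21. The day 0 libraries were highest and the day 7 libraries lowest in mean, and the change was -1.92 ± 0.16 (SE, edgeR adjusted p = 2.38e-07) at day 3, -2.65 ± 0.22 (SE, edgeR adjusted p = 7.32e-07) at day 7 and -1.18 ± 0.14 (SE, edgeR adjusted p = 5.57e-05) at day 21. Schwann-like cells went from 487, 477, 319.8 and 451 CPM at day 0 to 232, 319 and 307 at day 7, a change of -0.78 ± 0.21 (SE, edgeR adjusted p = 0.00343), and to 395, 322, 326 and 377 at day 21, a change of -0.40 ± 0.18 (SE, edgeR adjusted p = 0.126) that did not pass the test.

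Col4a2, the partner chain, forms the network with it. Endothelial-like cells held 770.00, 906, 683 and 846 CPM at day 0, 606, 739.6 and 856 at day 3, 1113, 1031, 979.98 and 1164 at day 7 and 981, 818, 940.5 and 902 at day 21. The day 7 libraries were above all of day 0 (0.43 ± 0.09 SE, edgeR adjusted p = 0.00148), whereas at day 3 the ranges overlapped (-0.00 ± 0.13 SE, edgeR adjusted p = 0.986). In mural-like cells the mean went from 458 ± 112 CPM (SD, n = 4) to 933 ± 91.9 CPM (SD, n = 4) at day 7 and 1097 ± 60.6 CPM (SD, n = 4) at day 21, changes of 0.96 ± 0.15 (SE, edgeR adjusted p = 2.62e-05) and 1.21 ± 0.13 (SE, edgeR adjusted p = 2.78e-06). In stromal-like cells it went from 323 ± 65.8 CPM (SD, n = 4) to 61.9 ± 19.7 CPM (SD, n = 4), a change of -2.36 ± 0.21 (SE, edgeR adjusted p = 1.38e-06). Its other calls against day 0 were 1.03 in mural-like cells at day 3, -1.66 and -0.59 in stromal-like cells at days 3 and 21 and -0.75 in Schwann-like cells at day 7, all log2. The count of Col4a1 per Col4a2 UMI, a ratio within each library that capture efficiency also sets, was 1.43, 1.39, 1.51 and 1.40 in endothelial-like cells at day 0 and 1.73, 1.74, 1.67 and 1.70 at day 7. In mural-like cells it averaged 1.20 ± 0.210 (SD) at day 0, 1.62 ± 0.135 at day 3, 1.88 ± 0.0230 at day 7 and 1.33 ± 0.0373 at day 21. The ratio was above its day 0 mean at days 3 and 7 in both vascular lineages, while in stromal-like cells it averaged 1.83 ± 0.114 at day 0, 1.55 ± 0.0920 at day 3, 1.51 ± 0.0733 at day 7 and 1.22 ± 0.0725 at day 21. At day 21 the means of all 4 lineages lay between 1.22 and 1.33. The ratios are given without a test.

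**Figure D3:**
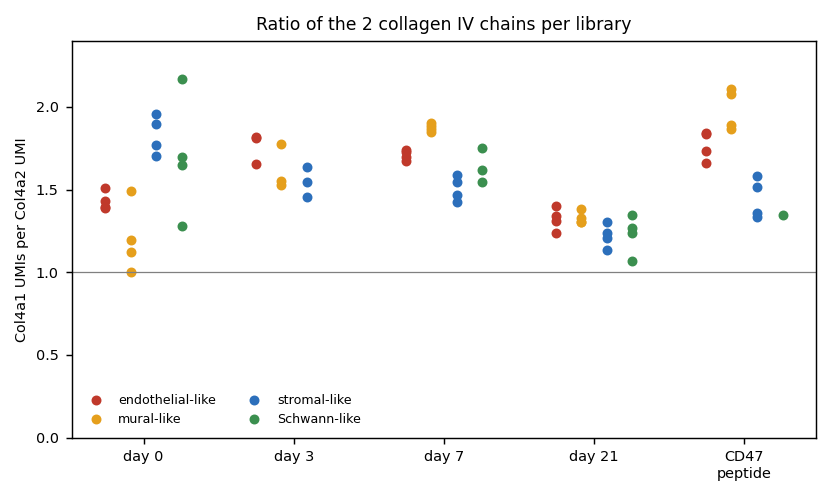
UMIs of Col4a1 per UMI of Col4a2 in each library (points), by lineage and group, with a line at 1. Mural-like libraries average 1.20 at day 0 and 1.88 at day 7, and stromal-like libraries are lowest at day 21, at 1.22.

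Col18a1, the source of the fragment endostatin, showed the highest log2 change in endothelial-like cells. Its values there were 11.9, 28.6, 41.0 and 44.8 CPM at day 0, 439.9, 446 and 576 at day 3, 785, 793, 692 and 786 at day 7 and 306, 202, 295 and 456 at day 21. All day 0 libraries lay below all later ones, and the change was 4.07 ± 0.25 (SE, edgeR adjusted p = 6.98e-08) at day 3, 4.61 ± 0.22 (SE, edgeR adjusted p = 3.86e-09) at day 7 and 3.36 ± 0.32 (SE, edgeR adjusted p = 6.01e-05) at day 21. Schwann-like cells went from 25, 84.1, 9.99 and 89.0 CPM at day 0 to 1066, 1151 and 1126 at day 7 and 614, 318, 281 and 749.7 at day 21, also without overlap (4.15 ± 0.31 SE, edgeR adjusted p = 2.75e-09 and 3.04 ± 0.47 (SE, edgeR adjusted p = 0.000782)). In mural-like cells the day 0 values of 217, 219, 206 and 315 CPM lay below all of the day 7 values of 1319, 1121, 1072 and 957 (2.12 ± 0.16 SE, edgeR adjusted p = 4.29e-09), and day 3 and day 21 differed from day 0 by 1.90 ± 0.16 and 2.07 ± 0.13 (both edgeR adjusted p under the threshold of 0.05). In stromal-like cells Col18a1 was at 31.2, 33.8, 24.6 and 43.6 CPM at day 0, 56.3, 34.7, 66.5 and 38.8 at day 7 and 76.9, 65.4, 77.4 and 114 at day 21. Its change of 0.60 ± 0.24 (SE, edgeR adjusted p = 0.0483) at day 7 was lost when any of 5 single libraries was left out, day 0 replicates 1, 2 and 3 and day 7 replicates 1 and 3 (adjusted p up to 0.146), turned to -0.16 with tenocyte-like cells added, and at day 21 it was 1.39 ± 0.20 (SE, edgeR adjusted p = 0.000227). At day 3 it was lower (-0.55 ± 0.17 SE, edgeR adjusted p = 0.0127), a call lost without day 0 replicate 4 (adjusted p = 0.0634).

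The share of endothelial-like cells with a Col18a1 UMI, each cell thinned to 1500 UMIs, averaged 3.11% at day 0, 53.4% at day 3, 57.6% at day 7 and 22.2% at day 21 (unthinned 6.79%, 91.1%, 88.7% and 46.5%). T/NK lymphocyte-like cells, which should lack the gene, were at 0.916% at day 7. Median depths then were 10080 UMIs per endothelial-like and 4203.5 per T/NK lymphocyte-like cell. The thinned day 0 share leaves out 116 cells under that depth. Monocyte/macrophage-like cells held 1.71 CPM at day 0 and 8.66 at day 7.

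Col15a1, which links collagen fibrils to the membrane, moved in opposite directions in stromal-like and vascular cells. Stromal-like libraries held 324, 339, 255 and 291 CPM at day 0, 17.7, 10.1 and 12.4 at day 3, 59, 28.6, 46.8 and 29.7 at day 7 and 159, 195, 178 and 132 at day 21. Day 0 was above every later library, day 3 below all others, and the change was -4.41 ± 0.18 (SE, edgeR adjusted p = 2.36e-10) at day 3, -2.86 ± 0.21 (SE, edgeR adjusted p = 2.76e-07) at day 7 and -0.83 ± 0.13 (SE, edgeR adjusted p = 0.00027) at day 21. Endothelial-like libraries held 152, 184, 149.6 and 177 CPM at day 0, 327, 266 and 383 at day 3, 606, 452, 494 and 641 at day 7 and 438, 264, 358 and 495 at day 21. Here each injured library was above each day 0 library, with a change of 1.10 ± 0.13 (SE, edgeR adjusted p = 1.04e-05) at day 3, 1.74 ± 0.12 (SE, edgeR adjusted p = 9.77e-08) at day 7 and 1.27 ± 0.17 (SE, edgeR adjusted p = 0.000293) at day 21. Mural-like libraries went from 8.51, 26.3, 48.4 and 13.5 CPM at day 0 to 209, 303, 225 and 306 at day 7 (3.31 ± 0.31 SE, edgeR adjusted p = 6.54e-08) and 67.7, 106, 129 and 107 at day 21 (1.96 ± 0.38 SE, edgeR adjusted p = 0.000834). At day 3 the mural-like change was 1.32 ± 0.40 (SE, edgeR adjusted p = 0.0102), lost without day 0 replicate 1 or 4 (adjusted p up to 0.061). Within the mural-like cluster led by Rgs5 and Higd1b the changes at days 3 and 21 did not pass the test. In Schwann-like cells the day 21 values of 244, 89.6, 133 and 302 CPM overlapped the day 0 values of 112, 42.1, 20 and 95.4, and the change of 1.37 ± 0.47 (SE, edgeR adjusted p = 0.0465) was lost with any 1 of several libraries left out (adjusted p up to 0.156).

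Lama2, the alpha2 chain of laminin, had the lowest log2 change of the members in stromal-like cells at each time point. Values there were 200.3, 173, 150.2 and 143 CPM at day 0, 5.75, 8.28 and 3.46 at day 3, 22.1, 12.2, 16.1 and 9.15 at day 7 and 60.9, 78.6, 63.9 and 40.7 at day 21. The 4 groups did not overlap, and the change from day 0 was -4.68 ± 0.21 (SE, edgeR adjusted p = 6.64e-10) at day 3, -3.47 ± 0.23 (SE, edgeR adjusted p = 1.08e-07) at day 7 and -1.44 ± 0.17 (SE, edgeR adjusted p = 4.88e-05) at day 21. In endothelial-like cells it was near 0, at 0.622, 0, 1.28 and 2.66 CPM at day 7. In mural-like cells it was at 8.51, 8.77, 12.1 and 9.0 CPM at day 0 and 14.2, 19.6, 20.7 and 22.8 at day 7, a change of 0.88 ± 0.45 (SE, edgeR adjusted p = 0.118) that did not pass the test. Schwann-like cells held 74.9, 0, 50 and 69.9 CPM at day 0, 14.9, 29.4 and 39.0 at day 7 and 89.4, 36.7, 51.8 and 59.9 at day 21, with 1 day 0 library at 0. Its change from day 0 to day 21 was 0.07 ± 0.46 (SE, edgeR adjusted p = 0.949), and from day 0 to day 7 it did not pass the filter on low counts and was not tested.

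The log2 changes of Lama4, the alpha4 chain, were nearer 0 than those of Lama2 in stromal-like cells. In stromal-like cells it was at 124, 126, 109.8 and 113 CPM at day 0, 56.3, 57.9 and 55.7 at day 3, 91.2, 73.6, 98.9 and 81.9 at day 7 and 106, 103, 115 and 91.0 at day 21. The day 3 libraries were lowest (-0.97 ± 0.09 SE, edgeR adjusted p = 7.42e-07), day 7 was lower than day 0 (-0.43 ± 0.11 SE, edgeR adjusted p = 0.00609) and at day 21 the change was -0.16 ± 0.10 (SE, edgeR adjusted p = 0.242). Endothelial-like cells held 129, 162, 135 and 160.2 CPM at day 0 and 83.8, 80.2 and 75.2 at day 3, again the lowest group (-0.76 ± 0.12 SE, edgeR adjusted p = 0.000184), and 132, 159.6, 142 and 149 at day 7 (-0.00 ± 0.10 SE, edgeR adjusted p = 0.991). Mural-like and Schwann-like changes did not pass the test at any time point.

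Of the laminin alpha UMIs of the 2 genes in stromal-like cells, Lama4 took 38.3%, 42.2%, 42.2% and 44.3% in the day 0 libraries, 90.7%, 87.5% and 94.2% at day 3, 80.5%, 85.8%, 86.0% and 90.0% at day 7 and 63.5%, 56.8%, 64.4% and 69.1% at day 21. Day 0 was below every injured library and day 21 lay between day 0 and day 7 without overlap. The mean was 41.7% ± 2.51 (SD, n = 4) at day 0, 90.8% ± 3.33 (SD, n = 3) at day 3, 85.6% ± 3.87 (SD, n = 4) at day 7 and 63.4% ± 5.07 (SD, n = 4) at day 21. Each of the comparisons of days 3, 7 and 21 with day 0 and of day 21 with day 7 gave p = 0.0286 by a two-sided exact permutation test, the smallest these group sizes allow, and an adjusted p of 0.0357 over 5 comparisons. This share is a quotient within a library and needs no scaling between libraries.

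**Figure D4:**
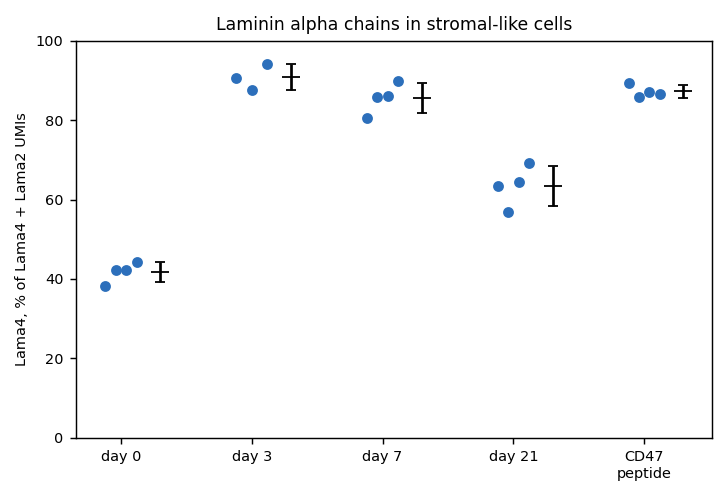
Lama4 share (%) of Lama4 plus Lama2 UMIs in stromal-like cells of each library (points), with the mean ± SD per group. Day 0 libraries average 41.7%, day 3 libraries 90.8% and day 21 libraries 63.4%.

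Lamb1, the beta1 chain shared by many laminins, rose in 3 lineages taken as a whole and fell in Schwann-like cells. Within the mural-like cluster led by Rgs5 and Higd1b its change did not pass the test at day 3, 7 or 21 against day 0. In all mural-like cells Lamb1 went from 8.51, 17.5, 16.1 and 27.0 CPM at day 0 to 103, 66.0 and 77.9 at day 3, 86.0, 86.7, 88.9 and 109 at day 7 and 54.3, 53.5, 61.9 and 56.8 at day 21. Day 0 was below all later libraries (2.26 ± 0.35 SE, edgeR adjusted p = 6.10e-05 at day 3, 2.33 ± 0.29 (SE, edgeR adjusted p = 2.90e-06) at day 7, 1.63 ± 0.30 (SE, edgeR adjusted p = 0.000522) at day 21). In endothelial-like cells 66.2, 69.7, 77.7 and 61.9 CPM at day 0 compared with 106, 124, 137 and 153 at day 7 (0.91 ± 0.12 SE, edgeR adjusted p = 2.99e-05) and 109, 103, 91.8 and 117 at day 21 (0.65 ± 0.11 SE, edgeR adjusted p = 0.00141), in both cases without overlap. In stromal-like cells 112, 87.0, 79.7 and 78.1 CPM at day 0 compared with 166, 129, 148 and 127 at day 7 (0.68 ± 0.14 SE, edgeR adjusted p = 0.000983), again without overlap, and at day 21 the change was 0.46 ± 0.11 (SE, edgeR adjusted p = 0.00785). In Schwann-like cells the day 0 values of 275, 309, 229.9 and 178 CPM were followed by 89.3, 63.0 and 190.2 at day 7 (-1.30 ± 0.31 SE, edgeR adjusted p = 0.00152) and 191, 151, 178 and 119.8 at day 21 (-0.72 ± 0.23 SE, edgeR adjusted p = 0.0343, up to 0.0908 with 1 library left out).

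Lamc1, the gamma1 chain of the same trimers, fell in stromal-like cells from 476, 429.9, 398 and 444 CPM at day 0 to 80.1, 81.2 and 78.6 at day 3, 122, 81.7, 97.5 and 93.4 at day 7 and 212, 254, 249 and 165 at day 21. Day 0 lay above all others, with a change of -2.36 ± 0.10 (SE, edgeR adjusted p = 2.83e-10) at day 3, -2.13 ± 0.13 (SE, edgeR adjusted p = 6.23e-08) at day 7 and -0.97 ± 0.13 (SE, edgeR adjusted p = 0.000113) at day 21. Lamb1 and Lamc1, 2 chains of one trimer, thus differed in direction in stromal-like cells at day 7. In endothelial-like cells Lamc1 rose from 127, 123, 134 and 147 CPM to 172, 198, 194 and 207 at day 7 (0.54 ± 0.09 SE, edgeR adjusted p = 0.000173), and in mural-like cells, at 158, 211, 185 and 189 at day 0 and 188, 146, 158 and 144 at day 7, the change did not pass the test (-0.30 ± 0.15 SE, edgeR adjusted p = 0.117).

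Nid1, nidogen, which ties laminin to type IV collagen, was at 864, 765, 722 and 824 CPM in stromal-like cells at day 0 and at 85.8, 93.3 and 84.7 at day 3, 332, 182, 279 and 188 at day 7 and 439, 514, 621 and 350.2 at day 21. Day 3 was lowest and day 0 highest, without overlap, with a change of -3.09 ± 0.11 (SE, edgeR adjusted p = 1.06e-10) at day 3, -1.68 ± 0.18 (SE, edgeR adjusted p = 6.53e-06) at day 7 and -0.70 ± 0.15 (SE, edgeR adjusted p = 0.00298) at day 21. Mural-like cells changed the other way, from 59.6, 123, 76.6 and 94.5 CPM at day 0 to 193, 183 and 156 at day 3, 343, 270.3, 276 and 292 at day 7 and 222, 259, 211 and 217 at day 21. Each injured library was above each day 0 library (1.07 ± 0.22 SE, edgeR adjusted p = 0.000648, 1.71 ± 0.18 (SE, edgeR adjusted p = 3.99e-07) and 1.35 ± 0.17 (SE, edgeR adjusted p = 2.00e-05) in that order of days). Within the mural-like cluster led by Rgs5 and Higd1b the Nid1 change did not pass the test at day 3, 7 or 21. Schwann-like cells went from 125, 70.1, 80.0 and 114 CPM to 257, 185 and 293 at day 7 (1.13 ± 0.26 SE, edgeR adjusted p = 0.00116) and 314, 216, 255 and 337 at day 21 (1.38 ± 0.24 SE, edgeR adjusted p = 0.00163). In endothelial-like cells the day 7 change was 0.23 ± 0.09 (SE, edgeR adjusted p = 0.0453), lost without day 0 replicate 1 or 3 or day 7 replicate 3 (adjusted p up to 0.144).

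Hspg2, perlecan, the heparan sulfate proteoglycan of the membrane, fell in the 3 larger lineages taken as a whole. Among the single clusters fitted, its change from day 0 passed only in that led by Plvap and Aplnr at day 3 (-0.42, edgeR adjusted p = 0.0453). At day 7 it was 0.10 in that cluster and -0.43 in the Clec3b and Pi16 cluster. In the mural-like clusters it was then -0.15 (Myh11 and Pln) and -0.23 (Rgs5 and Higd1b). In endothelial-like cells it went from 558, 587, 531 and 540.3 CPM at day 0 to 316, 248 and 377 at day 3, 448, 432, 389.6 and 474 at day 7 and 434, 427, 458 and 448 at day 21. All day 0 libraries were above all later ones (-0.70 ± 0.12 SE, edgeR adjusted p = 0.000341 at day 3, -0.34 ± 0.08 (SE, edgeR adjusted p = 0.0028) at day 7, -0.29 ± 0.07 (SE, edgeR adjusted p = 0.0115) at day 21). In mural-like cells 219 to 283 CPM at day 0, with a mean of 255 ± 27.6 CPM (SD, n = 4), compared with 173, 129.8, 147 and 139 at day 7 (-0.91 ± 0.15 SE, edgeR adjusted p = 6.03e-05), without overlap, and the calls at day 3 (-0.57 ± 0.17 SE, edgeR adjusted p = 0.0102) and day 21 (-0.49 ± 0.13 SE, edgeR adjusted p = 0.00878) were each lost without 1 library, day 3 replicate 3 (adjusted p = 0.0648) and day 0 replicate 4 (adjusted p = 0.0583). In stromal-like cells 485, 434, 350.03 and 382 CPM at day 0 compared with 133, 150.2 and 131 at day 3 (-1.49 ± 0.11 SE, edgeR adjusted p = 9.17e-08) and 264, 234, 240.2 and 232 at day 7 (-0.75 ± 0.11 SE, edgeR adjusted p = 0.000101). At day 21 the stromal-like change was -0.30 ± 0.11 (SE, edgeR adjusted p = 0.0479), lost without any of 6 single libraries (adjusted p up to 0.161). Schwann-like changes from day 0 did not pass the test.

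Between day 7 and day 21 most members rose in stromal-like cells. Here 8 of 10 members were higher at day 21 and 0 lower, with Lama4 and Lamb1 not passing, while 16.9% of the 12711 genes tested were higher and 16.8% lower, with a median member log2 change of 1.09. The largest changes were those of Lama2 (2.05 ± 0.26 SE, edgeR adjusted p = 0.000633), Col15a1 (2.04 ± 0.23 SE, edgeR adjusted p = 0.000359) and Col4a2 (1.79 ± 0.20 SE, edgeR adjusted p = 0.000357), and the smallest to pass was Hspg2 (0.46 ± 0.09 SE, edgeR adjusted p = 0.00414). The call was lost for Col18a1 without day 21 replicate 4 or day 7 replicate 2 or 4 (adjusted p up to 0.0562). Within the stromal-like cluster led by Clec3b and Pi16, an alternative chosen after seeing the data, Col4a2 (1.18), Col15a1 (0.98) and Col4a1 (0.77) rose. Lama2 (0.40, edgeR adjusted p = 0.0935), Col18a1 (0.54), Lamc1 (0.26), Hspg2 (0.15) and Nid1 (-0.065, all log2) did not pass the test there. In endothelial-like cells 0 members were higher and 2 lower, Col18a1 (-1.26 ± 0.19 SE, edgeR adjusted p = 0.000701) and Col4a1 (-0.59 ± 0.11 SE, edgeR adjusted p = 0.00156), while 15.8% of the 10236 genes tested were higher and 15.1% lower. Without day 21 replicate 4 or day 7 replicate 1, 4 were called. In mural-like cells 3 were higher and 3 lower, while 16% of the 9221 genes tested were higher and 15.3% lower. Col15a1 (-1.32 ± 0.18 SE, edgeR adjusted p = 8.21e-05), Lamb1 (-0.66 ± 0.12 SE, edgeR adjusted p = 0.000982) and Nid1 (-0.33 ± 0.10 SE, edgeR adjusted p = 0.0249) fell. Hspg2 (0.45 ± 0.11 SE, edgeR adjusted p = 0.00714), Lamc1 (0.43 ± 0.11 SE, edgeR adjusted p = 0.00715) and Col4a2 (0.28 ± 0.09 SE, edgeR adjusted p = 0.0242) rose. The call was lost for Nid1 without day 21 replicate 1, 3 or 4 or day 7 replicate 1 (adjusted p up to 0.0741) and Col4a2 without day 21 replicate 2 or 4 or day 7 replicate 2 or 3 (adjusted p up to 0.0665). In Schwann-like cells 3 were higher, Lama2 (1.32 ± 0.40 SE, edgeR adjusted p = 0.03), Col4a2 (0.78 ± 0.17 SE, edgeR adjusted p = 0.00606) and Hspg2 (0.69 ± 0.23 SE, edgeR adjusted p = 0.0464), and 1, Col18a1 (-1.14 ± 0.28 SE, edgeR adjusted p = 0.0111), lower, while 14.4% of the 4479 genes tested were higher and 13.8% lower. Without day 7 replicate 1 only 1 was called, and without day 7 replicate 2 or day 21 replicate 1 there were 2. The call was lost for Lama2 without day 21 replicate 1 or day 7 replicate 1 or 2 (adjusted p up to 0.191), Col4a2 without day 7 replicate 1 (adjusted p up to 0.0536) and Hspg2 without day 21 replicate 1, 3 or 4 or day 7 replicate 1, 2 or 3 (adjusted p up to 0.225). The other basement membrane genes higher and lower at day 21 numbered 8 and 3 of 15 in stromal-like, 5 and 1 of 14 in endothelial-like, 5 and 1 of 12 in mural-like and 4 and 2 of 8 in Schwann-like cells. The receptors numbered 7 and 1 of 14, 9 and 0 of 15, 8 and 2 of 14 and 3 and 2 of 11 in the same order. These comparisons share the day 7 or day 21 libraries with those against day 0.

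The difference in change between lineages was itself tested, in a fit of the lineages of each library added after the data had been seen. Relative to stromal-like cells, the change from day 0 in endothelial-like cells was higher for 7 members at day 3, 8 at day 7 and 6 at day 21, and lower for 0 at each, where 23.8%, 27% and 14.8% of genes were called in either direction. In mural-like cells it was higher for 10, 9 and 8 of 10 members and lower for 0, where 21.5%, 24.4% and 12.9% of genes were called. Col15a1 had a difference in log2 change of 6.28 ± 0.41 (SE, edgeR adjusted p = 4.60e-11) for mural-like and 4.58 ± 0.27 (SE, edgeR adjusted p = 8.50e-12) for endothelial-like cells at day 7. For Col4a1 it was 4.38 ± 0.21 (SE, edgeR adjusted p = 5.96e-13) and 3.33 ± 0.20 (SE, edgeR adjusted p = 8.50e-12). Lama2 in mural-like cells differed by 4.48 ± 0.51 (SE, edgeR adjusted p = 3.37e-07), although its own change there did not pass the test.

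The lineages were not made of the same clusters at each time point. In stromal-like cells a cluster led by Myoc and Inmt held 962 cells at day 0 and 51 at day 7, and one led by Clec3b and Pi16 180 and 1573, while one led by Gzme and Sfrp1 held 0 and 833. A cluster led by Cxcl14 and Cxcl5, with 3 cells at day 0, held 748 of the 818 stromal-like cells at day 3. The Clec3b and Pi16 cluster then held 35. At day 21 the Myoc and Inmt cluster held 296 cells, the Clec3b and Pi16 cluster 1114 and the Gzme and Sfrp1 cluster 37. In endothelial-like cells a cluster led by Timp4 and Gpihbp1 held 948 cells at day 0 and 37 at day 7, and one led by Plvap and Aplnr 128 and 579. In mural-like cells a cluster led by Myh11 and Pln held 141 and 82, and one led by Rgs5 and Higd1b 41 and 476. The comparisons were therefore repeated within single clusters, an alternative chosen after seeing the data.

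Within the Clec3b and Pi16 cluster, day 7 minus day 0, Col4a1 (-2.46, edgeR adjusted p = 1.08e-07), Lama2 (-2.31, edgeR adjusted p = 4.59e-09), Col4a2 (-2.08), Col15a1 (-1.88), Lamc1 (-1.53) and Nid1 (-0.69, all log2) fell and Lamb1 (0.80, edgeR adjusted p = 0.00236) rose, whereas Hspg2 (-0.43, edgeR adjusted p = 0.0513), Lama4 and Col18a1 did not pass the test. The values of every member except Lamb1 were nearer 0 there than in all stromal-like cells, a difference that was not tested. For day 3 minus day 0 in the same cluster, Lama2 (-2.78), Col15a1 (-2.28), Col4a1 (-1.70), Lamc1 (-1.62), Nid1 (-1.59) and Col4a2 (-1.31, all log2) fell. Hspg2 (-0.57, edgeR adjusted p = 0.0719), Col18a1 (-0.44), Lamb1 (0.33) and Lama4 (-0.19) did not pass the test. In the Myoc and Inmt cluster Col4a1 averaged 579.9 CPM at day 0 and 549 at day 21, Lama2 164 and 174, Lamc1 438 and 391 and Nid1 809 and 869.8, values given without a test.

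Within the Plvap and Aplnr cluster, day 7 minus day 0, Col18a1 (3.85, edgeR adjusted p = 6.18e-10), Col15a1 (1.43), Lamb1 (1.12), Col4a1 (0.92) and Col4a2 (0.77) rose. Hspg2 (0.10, edgeR adjusted p = 0.537), Nid1 (0.02) and Lamc1 (0.30) did not pass the test, so the lower Hspg2 of endothelial-like cells at day 7 did not pass the test within this cluster. Within the Rgs5 and Higd1b cluster, with 2 day 0 libraries, Col18a1 (3.28, edgeR adjusted p = 2.14e-07), Col15a1 (2.49), Col4a1 (2.27) and Col4a2 (1.64) rose, and Lamb1 (0.49, edgeR adjusted p = 0.59), Nid1 (1.02) and Hspg2 (-0.23) did not pass the test. Within the Myh11 and Pln cluster Col18a1 (2.12, edgeR adjusted p = 3.07e-05), Nid1 (1.44) and Col4a1 (1.05) rose. Col4a2 (0.52, edgeR adjusted p = 0.0501) and Hspg2 (-0.15) did not pass the test, and Col15a1 and Lamb1 were not tested there.

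Where the transcripts of the tissue lay depends on both the level per cell and the number of cells freed from it, and these cannot be told apart in a share of the library. Endothelial-like cells held 55.9% of all Col4a1 UMIs at day 0, 32.4% at day 3, 50.4% at day 7 and 36.4% at day 21 (means over libraries). Mural-like cells, which were 5.02% of cells at day 0 and 4.11% at day 7, held 4.04%, 23.7%, 29.2% and 29.6%. Of Col15a1 UMIs, 60.3% lay in stromal-like cells at day 0 and 22.9% at day 7, and 30.6% and 52.5% in endothelial-like cells. Of Col18a1 UMIs, 37.8% lay in endothelial-like and 33.2% in mural-like cells at day 7. Of Lama2 UMIs, 79.4% lay in stromal-like cells at day 0 and 58.8% at day 7, when tenocyte-like cells held 27.0%. Schwann-like cells held 9.72% of Lamb1 UMIs at day 0, while they were 3.12% of cells. Tenocyte-like cells held 46.0% of Hspg2 UMIs at day 21. Of the cells with this name then, 1073 were in a cluster led by Col2a1 and Cilp2 and 197 in a cluster led by C1qtnf3 and Scx. The first of these also had Col9a1, Col9a2, Col9a3 and Col11a2 among its leading genes, so the name does not show its cells to be tendon cells.

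**Figure D5:**
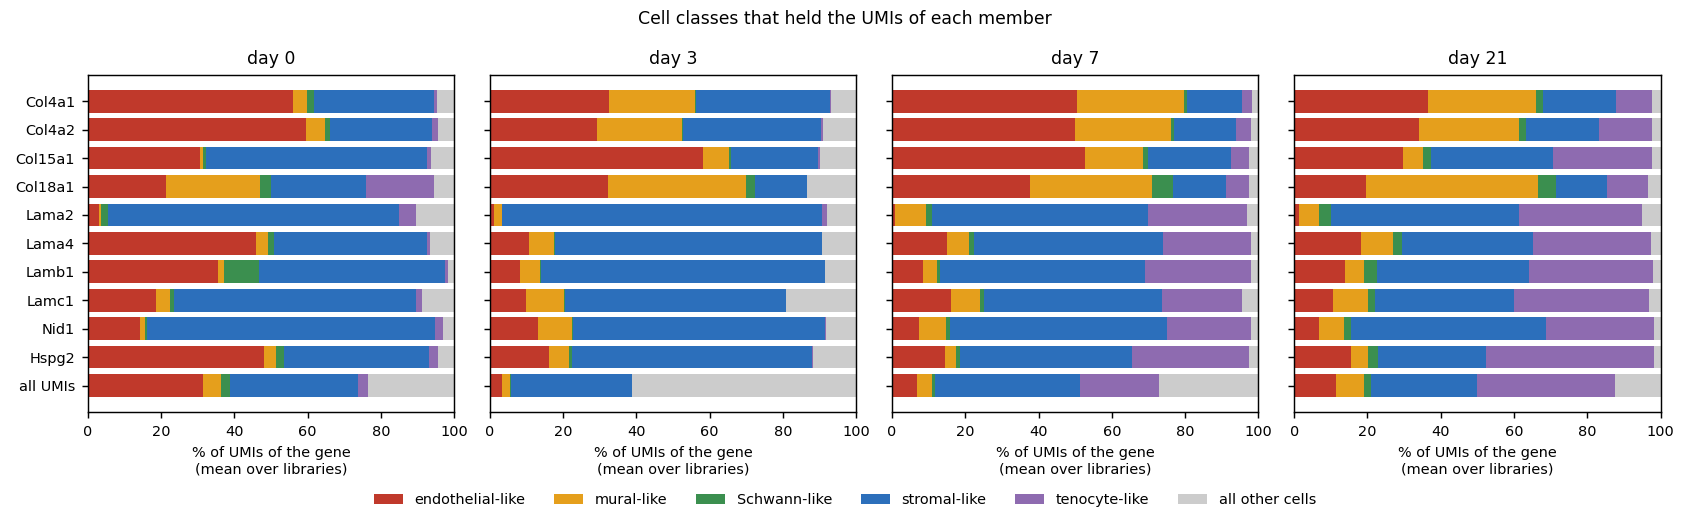
Share (%) of each member's UMIs held by each class of cells (stacked bars, means over libraries) at days 0, 3, 7 and 21. The endothelial-like part of Col4a1 is 55.9% at day 0 and 50.4% at day 7, and the stromal-like part of Col15a1 is 60.3% and 22.9%.

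The CD47 activating peptide was compared with day 7 post burn/tenotomy. Among the members 0 of 9 tested in endothelial-like, 0 of 10 in mural-like and 0 of 10 in stromal-like cells passed the edgeR test, where 0%, 0.0107% and 0% of all genes did. Over all genes edgeR called 0, 1 and 0 genes, and 794, 624 and 1318 had an unadjusted p under 0.05. DESeq2 called 0, 1 and 51 genes, none of them a member, and gave 436, 305 and 1168 at an unadjusted p under 0.05. The mural-like gene was Hmox1, heme oxygenase, named after its value was seen (log2 1.43 ± 0.16, edgeR adjusted p = 0.00203). Endothelial-like Col18a1 was at 785, 793, 692 and 786 CPM without and 927, 675, 632 and 852 with the peptide, a log2 difference of 0.00 ± 0.12 (SE, edgeR adjusted p = 1.00). Mural-like Col4a1 was at 1973, 1707, 1567 and 1749 and 1871, 1610.3, 1769 and 1581 CPM (-0.04 ± 0.09 SE, edgeR adjusted p = 0.974). Stromal-like Lama2 was at 22.1, 12.2, 16.1 and 9.15 and 9.10, 12.8, 9.46 and 10.7 CPM (-0.48 ± 0.24 SE, edgeR adjusted p = 0.531), and stromal-like Lama4 at 91.2, 73.6, 98.9 and 81.9 and 77.4, 77.2, 63.7 and 69.3 (-0.26 ± 0.11 SE, edgeR adjusted p = 0.473). All 4 pairs of groups overlapped. The Lama4 share averaged 87.2% ± 1.58 (SD, n = 4) with the peptide, a difference of 1.68 percentage points (exact permutation p = 0.429). The other basement membrane genes and the receptors gave 0 calls in all 3 lineages.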

How the data were processed

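Single-cell suspensions of the injury site were captured with the 10x Chromium 3′ v2 kit. The authors processed the reads with Cell Ranger and deposited raw UMI counts per gene and barcode, 1 matrix per library. The matrix of day 0 replicate 1 held 737280 barcodes and those of the other libraries 614 to 3786. In that library the cells were therefore set by the cutoffs below alone. The submitters' processing notes also name Seurat, give no versions, and list the build as GRCh38 for 15 libraries and mm10 for 4, while the methods give mm10 and all gene IDs are mouse. Cells had to show 500 genes or more and no more than 25% of UMIs from mitochondrial genes. Doublets were not removed.

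Cells were clustered on 2000 variable genes without the members, the 24 other basement membrane genes and the 16 receptors (scanpy 1.11.5, 30 components, 20 neighbours, Leiden resolution 0.8). Clusters were named from marker lists, with naming thresholds set after seeing the data. Counts were summed per library and lineage (at least 10 cells) and tested over all genes with edgeR 4.0.16 (quasi-likelihood, TMM, filterByExpr, Benjamini-Hochberg, called at adjusted p under 0.05). Day comparisons used their own groups only, and lineages of a day were compared with library as a block. The Lama4 share was tested by exact permutation over every split of the libraries (Python 3.11.15). The members and lists were chosen with earlier results of these data known. Members called are named in every comparison of days or lineages, and of the other lists at most the 3 largest changes called. Replicate numbers did not pair the libraries (correlation of deviations -0.345 to 0.442). Tests were first run on simulated data. Alternatives were DESeq2 1.42.0, other scalings, filters, cell cutoffs and clusterings, leaving out libraries, Scrublet scores and single clusters.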

Additional observations from a re-analysis of the deposited data

Results flagged for a closer look

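Of 144 groups of 4 libraries examined, 6 had 1 library far from the others, and chance flags about 1 in 20 groups. Mural-like Col18a1 was 315 CPM in day 0 replicate 4, against 206 to 219 in the other libraries. Mural-like Lama2 was 12.1 CPM in day 0 replicate 3, which rests on 3 UMIs, against 8.51 to 9.0. Endothelial-like Col18a1 was 692 CPM in day 7 replicate 3, against 785 to 793. Mural-like Lamb1 was 109 CPM in day 7 replicate 4, against 86.0 to 88.9. In mural-like cells of CD47 peptide replicate 3, Lamc1 was 233 CPM, against 149 to 158, and Hspg2 was 165 CPM, against 137 to 138.

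Some members changed in one direction in a vascular lineage and in the other in stromal-like cells, with the difference in log2 change from day 0 itself passing the edgeR test. For mural-like minus stromal-like cells it was 5.73, 6.28 and 2.84 for Col15a1 at days 3, 7 and 21, 3.43, 4.38 and 2.62 for Col4a1, 2.74, 3.45 and 1.88 for Col4a2 and 4.20, 3.52 and 2.15 for Nid1. Mural-like Col18a1 differed by 2.52 at day 3. For endothelial-like minus stromal-like cells it was 5.44, 4.58 and 2.08 for Col15a1 at days 3, 7 and 21, and 2.16 and 3.33 for Col4a1 at days 3 and 7. Endothelial-like Col18a1 differed by 4.60 at day 3, and Col4a2, Lamc1 and Nid1 by 2.80, 2.66 and 1.91 at day 7.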

How the results depend on the processing

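Of 187 member calls, 151 held under every alternative planned at the outset in which the gene was tested, and 36 were lost under at least 1. Of the calls, 1 turned (Col18a1, stromal-like cells, day 7 minus day 0, -0.16 with tenocyte-like cells added), and 29 were lost with 1 library left out. With at least 10 UMIs in every sum, 130 calls held, 7 were lost and the others were not tested there. Causes were not tested. Shares of all genes called are given for the main fits only. Counts of members called under an alternative are therefore not set against such a share. Scaling by library totals moved the median of all genes by up to 0.346 on the log2 scale (day 7, Schwann-like minus stromal-like cells). The shallow Schwann-like and day 0 sums limit the precision.

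With at least 10 UMIs in every sum, fewer genes were tested, and members called numbered 0 for Schwann-like cells at day 21 against day 0, 3 at day 7 against day 0, and, between lineages at day 0, 3 for Schwann-like against stromal-like, endothelial-like against Schwann-like, mural-like or stromal-like, 1 for mural-like against Schwann-like and 2 for mural-like against stromal-like cells. Schwann-like cells at day 21 against day 0 gave 2 with the top Scrublet scores removed, at day 21 against day 7 gave 2 with DESeq2, and at day 7 against day 0 gave 3 without a filter on low counts. Endothelial-like cells at day 21 against day 7 gave 4 in 1 fit of all groups and 4 with library totals. With replicates 1 to 3 only, mural-like cells gave 4 against Schwann-like cells at day 0 and 3 at day 21 against day 7.

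With the replicate number as a block, the Lama4 share differed by 49.9, 43.8 and 21.7 points at days 3, 7 and 21 against day 0 and by -22.1 at day 21 against day 7, with exact adjusted p of 0.312, 0.208, 0.208 and 0.208, which pairing cannot bring under 0.05 with so few libraries, and the block left 2 members called in Schwann-like cells at day 21 against day 7. The numbers do not pair the libraries.

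Single clusters, an alternative chosen after seeing the data, were tried in place of whole lineages, and 5 of these could not be fitted for want of cells. The cluster led by Clec3b and Pi16 gave a Lama4 share difference of 40.0 at day 3 against day 0 (exact adjusted p = 0.0833). Too few day 3 libraries held enough of its cells for this test to come under 0.05. The same cluster gave 8 members called for Schwann-like against stromal-like cells at day 7 and 3 at day 21 against day 7. The cluster led by Plvap and Aplnr gave 5 at day 7 against day 0. The cluster led by Rgs5 and Higd1b gave 5 for endothelial-like against mural-like and 1 for mural-like against Schwann-like cells at day 0, and 3, 4 and 3 at days 3, 7 and 21 against day 0. The cluster led by Myh11 and Pln gave 3 and 3 at days 7 and 21 against day 0 and 0 at day 21 against day 7. The genes tested and the share of all genes called in these fits are not given, so these counts alone show no change in the members.

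The log2 differences below turned within a single cluster and had passed the test in the whole lineage or passed it in the cluster. Others, which passed in neither, also changed sign. With the Myh11 and Pln cluster at day 7, mural-like minus Schwann-like cells gave Col15a1 -2.51, Hspg2 0.0080 and Nid1 -0.58, mural-like minus stromal-like cells gave Col15a1 -1.33 and Nid1 -0.95, endothelial-like minus mural-like cells gave Nid1 0.30, and mural-like day 21 minus day 7 gave Lamc1 -0.24. With the Rgs5 and Higd1b cluster at day 0, mural-like minus Schwann-like cells gave Col4a1 -0.12, mural-like minus stromal-like cells Col4a2 -0.34 and endothelial-like minus mural-like cells Lamc1 0.17. With the Plvap and Aplnr cluster, Hspg2 was -0.092 for endothelial-like minus stromal-like cells at day 0, 0.10 at day 7 minus day 0 and 0.064 at day 21 minus day 0. With the Timp4 and Gpihbp1 cluster, Nid1 was -0.57 at day 21 minus day 0. With the Clec3b and Pi16 cluster at day 7, Schwann-like minus stromal-like cells gave Lama2 -1.12, mural-like minus stromal-like cells gave Lama2 -1.30, Lama4 -0.61, Lamc1 -0.38 and Nid1 -1.05, endothelial-like minus stromal-like cells gave Lama4 -0.081 and Lamc1 -0.10, and stromal-like day 21 minus day 7 gave Nid1 -0.065.

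With each library left out in turn, the Lama4 share difference was 47.4 to 50.7, 42.4 to 45.5 and 19.8 to 23.9 points at days 3, 7 and 21 against day 0, -24.0 to -19.9 at day 21 against day 7 and -0.00298 to 3.14 for the peptide. Members called against day 0 at days 3, 7 and 21 were 4 to 6, 7 to 8 and 4 to 6 in endothelial-like, 6 to 7, 7 to 8 and 6 to 8 in mural-like and 8 to 9, 9 to 10 and 8 to 9 in stromal-like cells, and 5 and 2 to 4 at days 7 and 21 in Schwann-like cells. At day 21 against day 7 they were 2 to 4, 4 to 6, 7 to 9 and 1 to 4 in endothelial-like, mural-like, stromal-like and Schwann-like cells, and 0 for the peptide in each lineage tested. Between lineages they were 4 to 9 at day 0 and 3 to 10 at day 7.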

Other observations

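An unnamed cluster led by Sfrp5, Lypd2, Cldn1 and Krt19 held 162 cells, 37 at day 0 and 82 at day 21, and carried basement membrane transcripts too. Col4a1 was at 766, 474 and 407 CPM in the 3 day 0 libraries with at least 10 of its cells, and Lama4 at 349, 284 and 236. At day 21 Col4a1 was at 523, 357 and 440.1 CPM and Lama4 at 165, 101 and 164. No day 21 library of Lama4 reached the day 0 range. Col15a1, Col18a1 and Lamb1 went the other way, each higher in every day 21 library than at day 0. Col18a1 was at 38.8, 31.6 and 91.9 CPM at day 0 and 385, 365 and 370 at day 21. The day 0 values rest on 10, 10 and 11 cells, with 36, 9 and 18 Lama4 UMIs, and were not tested.

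Tenocyte-like cells, which were not among the lineages compared, held Hspg2 at means of 347 CPM at day 0, 319 at day 7 and 397 at day 21. Lamb1 averaged 19.9, 141 and 77.9 CPM there, Col4a1 229.6, 31.7 and 97.7, and Lama2 145, 13.7 and 30.5. The day 0 values rest on 52 cells, against 2012 at day 7, and were not tested. The name tenocyte-like covered a cluster led by Col2a1 and Cilp2, with 51, 54 and 1073 cells at days 0, 7 and 21. It also covered a cluster led by C1qtnf3 and Scx, with 1, 1958 and 197 cells. The study counts Col2a1 among chondrogenic and osteogenic markers. These values thus come from different mixtures of cells at each day.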
